A study of Mus musculus with 2 samples.

Results

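The expression of 10 genes of platelet-derived growth factor (PDGF) signaling and of pericytes was followed in mouse ureter explants treated with BIO. The genes were selected by name, as a group to set beside endothelial genes, with earlier results of these data known. They comprised the ligand genes Pdgfa and Pdgfb, the receptor genes Pdgfra and Pdgfrb, and the pericyte marker genes Rgs5, Cspg4, Kcnj8, Abcc9, Mcam and Anpep. These 10 genes, of 29875 genes by name on the array, were covered by 13 of its 39429 probes.

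E12.5 ureters were taken from wildtype embryos of the NMRI mouse strain and cultured for 18 h in serum-free medium with 10 µM BIO or, as control, with DMSO at 2 parts per 1000. BIO (6-bromoindirubin-3-oxime) inhibits the kinase GSK3 and is used as an activator of canonical WNT signaling, and DMSO is its solvent. RNA of pooled ureters, whose sex was not determined, was hybridized to 2 Agilent 2-color arrays, each of which compared BIO-treated with control ureters. The BIO sample was read in red on the first array (replicate 1) and, after a dye swap, in green on the second (replicate 2).

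Pericytes are the mural cells that ensheathe capillaries. Endothelial cells secrete PDGF-B, which acts on PDGFRβ at the surface of pericyte progenitors and promotes their recruitment and proliferation, whereas PDGF-A acts on PDGFRα, a receptor of many mesenchymal and fibroblastic cells. No gene of the pericyte list marks pericytes alone in every tissue, and ureters at this stage also hold a ureteric epithelium (UE), a ureteric mesenchyme (UM) from which smooth muscle arises, and vessels.

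For each probe the log2 ratio of BIO over control was computed on each array, so that a value of -1 is a 2-fold lower signal with BIO. The mean of both arrays was tested against 0 with limma across all probes above background, and a gene was called changed at a Benjamini-Hochberg adjusted p below 0.05. Where a gene had several probes, the one with the highest mean intensity represented it. All 13 probes of the 10 genes were well above background in every channel of both arrays. Signals of different probes are not on one scale and were not set against each other.

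Both probes of Mcam are shown first, since they gave different results, followed by those of the pericyte markers Rgs5, Abcc9 and Kcnj8, of which the last pair encodes subunits of one channel. Each line is a stretch of 30 bases of the 60-base probe, and capitals mark a run of a repeated dinucleotide. The first Mcam probe lies at chr9:43950664-43950723 on the plus strand (mm9, as for all probe positions) and the second at chr9:43949385-43949444. The probes of Rgs5 at chr1:171623021-171623080 (plus strand), Abcc9 at chr6:142536920-142536979 (minus strand) and Kcnj8 at chr6:142513487-142513546 (minus strand) follow.
Mcam, probe with the higher intensity, bases 13 to 42: gagGTGTGTGTGTGTGTGTGTGTatacata
Mcam, other probe, bases 1 to 30: atttgtagttgaagttaagtcagataagct
Rgs5: agagtaccgctgtgttatctggacattctc
Abcc9: attgcgttgcttgggctacctccgatgaca
Kcnj8: cacgggtcatcatgaatatgttcaaatcta

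Of the 10 genes, 7 fell with BIO, 0 rose and 3 were not called (limma, n = 2 arrays). Among all 21574 genes tested, 23.9% were called, 14.8% fell and 9.13% rose. At an unadjusted p below 0.05 none of the 10 rose either, since all 10 mean ratios were below 0. The 7 genes that fell were the receptor genes Pdgfrb and Pdgfra, the ligand gene Pdgfb and the pericyte marker genes Rgs5, Abcc9, Kcnj8 and Anpep. The median log2 ratio of the 10 genes was -0.73 (replicate 1, -0.84; replicate 2, -0.65), and that of all genes tested was -0.01. In RNA of whole explants, fewer cells of a type and less RNA per cell cannot be told apart, which holds for each change given here.

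**Figure D1:**
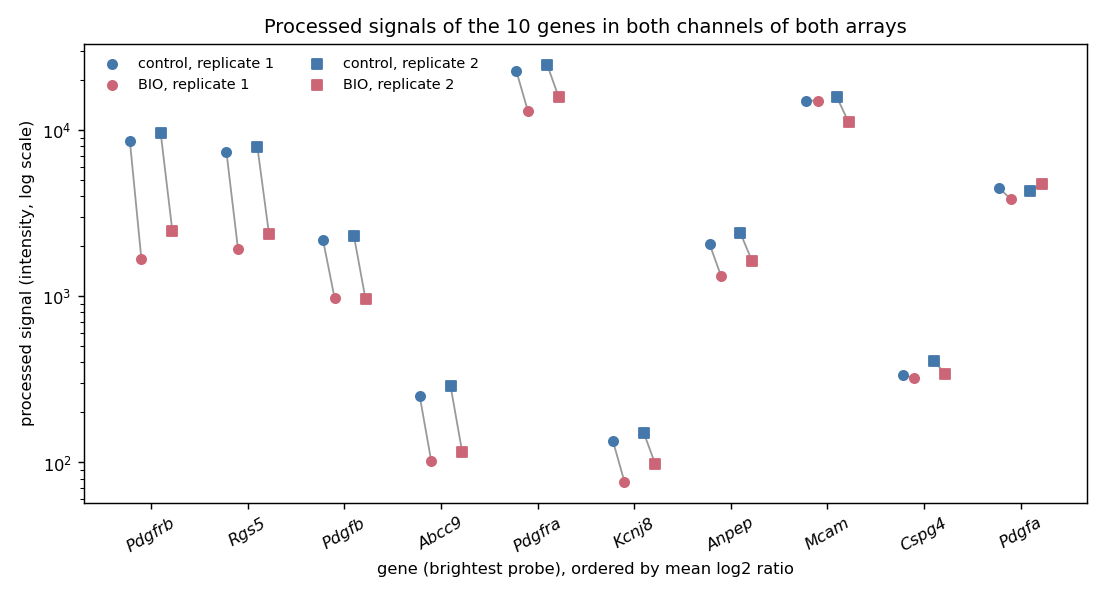
Processed signal (intensity, log scale) of the probe that represents each of the 10 genes, in the control (blue) and BIO (red) channels of replicate 1 (circles) and replicate 2 (squares), joined within an array. The BIO signals of Pdgfrb, at 1669 and 2483, lie far below its control signals of 8670 and 9573, whereas those of Pdgfa overlap, and heights of different genes are not comparable.

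The ligand gene Pdgfb fell with BIO. Its signals were 2179 and 2304 in the control channels of replicates 1 and 2, and 974 and 961 in the BIO channels. Both BIO signals lay below both control signals. Log2 ratios of -1.16 and -1.27 gave a mean of -1.22 ± 0.109 (SE, n = 2 arrays, adjusted p = 0.000227), or 43.0% of control. The probe lies at chr15:79826376-79826435 on the minus strand. The second Pdgfb probe, at chr15:79827438-79827497, had signals of 146 and 191 in control and of 77.1 and 81.6 with BIO, again without overlap, and a mean log2 ratio of -0.94 ± 0.116 (adjusted p = 0.000946). Both Pdgfb probes thus gave the same direction at separate places of the transcript.

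Pdgfa, which encodes a ligand of PDGFRα, was not called. Its signals were 4475 and 4304 in control and 3850 and 4737 with BIO, so that the groups overlapped. The log2 ratio had opposite signs on the arrays, -0.28 in replicate 1 and 0.16 in replicate 2, and a mean of -0.06 ± 0.133 (adjusted p = 0.800), with a 95% confidence interval from -0.36 to 0.25. The second Pdgfa probe shares 51 of its 60 bases with the first and was therefore no separate check. It gave -0.18 and 0.06 on the 2 arrays (mean -0.06 ± 0.115, adjusted p = 0.755). Within arrays, the log2 ratio of Pdgfb was lower than that of Pdgfa by a difference of -0.88 in replicate 1 and -1.44 in replicate 2, a description with no test.

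Pdgfrb, which encodes a receptor of PDGF-B and marks pericytes and other mural and stromal cells, changed most among the 10 genes. Its signals were 8670 and 9573 in control and 1669 and 2483 with BIO, with no overlap. Replicate 1 gave a log2 ratio of -2.45 and replicate 2 one of -1.88. The mean of -2.17 ± 0.147 (adjusted p = 7.91e-05) corresponds to a 4.49-fold lower signal, or 22.3% of control, with a 95% confidence interval from -2.51 to -1.83. Ordered from the lowest ratio, Pdgfrb was at place 54 of the 21574 genes tested.

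Pdgfra, the PDGFRα gene of mesenchymal cells, fell less. Its signals were 22838 and 24786 in control and 13069 and 15798 with BIO, and the groups did not overlap. The log2 ratio was -0.88 and -0.70 (mean -0.79 ± 0.112, adjusted p = 0.00186), at 57.8% of control. The log2 ratio of Pdgfrb was lower than that of Pdgfra by a difference of -1.57 in replicate 1 and -1.18 in replicate 2, which is larger than the difference between the arrays for either gene but was not tested. The Pdgfra probe lies at chr5:75593888-75593947 on the plus strand, next to other receptor tyrosine kinase genes. Of the tested genes nearest to it, Kit, with a probe 458506 bp away, fell by 1.48 on the log2 scale (adjusted p = 0.000105), and the endothelial receptor gene Kdr fell by 2.63 (adjusted p = 0.000116). Chic2, with a probe 186593 bp from that of Pdgfra, was not called (-0.29, adjusted p = 0.0918).

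**Figure D2:**
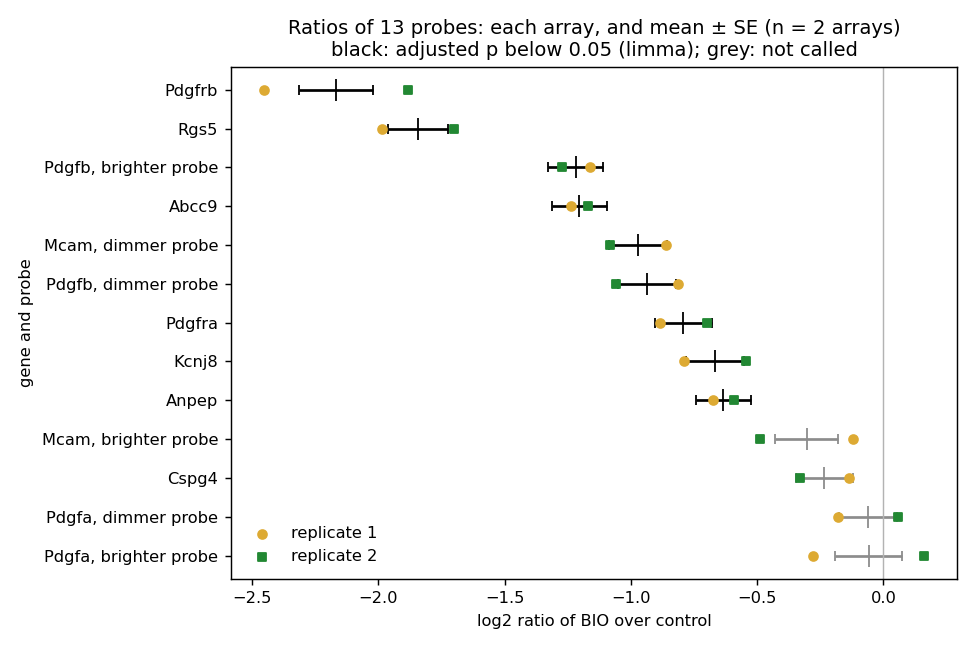
Log2 ratio of BIO over control for the 13 probes of the 10 genes (horizontal axis) on each array (circle, replicate 1; square, replicate 2), with the mean and its SE as a bar, black where the probe was called and grey where it was not. Pdgfrb (-2.17) and Rgs5 (-1.84) are farthest below 0, both Pdgfa probes lie near 0, and the 2 probes of Mcam are apart at -0.97 and -0.30.

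Among the pericyte markers, 4 of 6 fell, beside 14.8% of all genes tested. Rgs5, which encodes a regulator of G-protein signaling found in pericytes and vascular smooth muscle, fell most of these. Its signals were 7395 and 7959 in control and 1920 and 2388 with BIO, and both BIO signals lay far below both control signals. The log2 ratio was -1.99 and -1.70 (mean -1.84 ± 0.119, adjusted p = 6.45e-05), at 27.9% of control. On both arrays the ratio of Pdgfrb was lower than that of Rgs5, by -0.47 and -0.18, without a test. Rgs4, another gene of the RGS family with a probe 49467 bp from that of Rgs5, was not called (-0.16, adjusted p = 0.380).

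Abcc9 and Kcnj8 encode the regulatory sulfonylurea receptor SUR2 and the pore subunit Kir6.1, which together form the ATP-sensitive potassium channel of pericytes and vascular smooth muscle, and are neighbors in the genome. Abcc9 had signals of 252 and 288 in control and of 102 and 116 with BIO, with no overlap. Its log2 ratio was -1.24 and -1.17 (mean -1.20 ± 0.108, adjusted p = 0.000227), at 43.4% of control. Both channel subunit genes fell. Kcnj8 had signals of 135 and 151 in control and of 76.5 and 97.3 with BIO, also with no overlap, and log2 ratios of -0.79 and -0.54 (mean -0.67 ± 0.116, adjusted p = 0.00481). The ratio of Abcc9 was lower than that of Kcnj8 by -0.45 and -0.63 on the 2 arrays, without a test. Their probes are 23433 bp apart, and the nearest tested genes on either side, Ldhb (-0.06, adjusted p = 0.772) and Cmas (-0.35, adjusted p = 0.0686), were not called. The offset used in the background correction pulls the ratios of dim probes such as those of Kcnj8 and Abcc9 toward 0.

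Anpep encodes aminopeptidase N (CD13), a pericyte marker that is also made by epithelial and myeloid cells. Its signals were 2071 and 2405 in control and 1325 and 1635 with BIO, without overlap. The log2 ratio was -0.68 and -0.59 (mean -0.63 ± 0.109, adjusted p = 0.00451), at 64.5% of control. The probe lies at chr7:86966716-86966775 on the minus strand.

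Cspg4, which encodes the proteoglycan NG2 of pericytes and of glial and mesenchymal progenitors, was not called. Its signals were 335 and 411 in control and 323 and 342 with BIO. The BIO signal of replicate 2 lay above the control signal of replicate 1, so that the groups overlapped, although the log2 ratio was below 0 on both arrays (-0.14 and -0.33). The mean was -0.23 ± 0.113 (adjusted p = 0.178), with a 95% confidence interval from -0.49 to 0.03. A decrease of the size of that of Rgs5 or Abcc9 lies outside this interval. The probe lies at chr9:56746627-56746686 on the plus strand.

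The call of Mcam, which encodes the adhesion molecule CD146 of endothelial cells, pericytes and smooth muscle, depended on the probe. The probe that represents it had signals of 15073 and 15769 in control and of 15091 and 11173 with BIO, and the groups overlapped. Its log2 ratio was -0.12 and -0.49 (mean -0.30 ± 0.126, adjusted p = 0.121). The 95% confidence interval, which is not adjusted for the number of probes, ran from -0.59 to -0.02 and did not include 0. The other probe, 1279 bp away in the genome, had signals of 1697 and 2111 in control and of 953 and 1008 with BIO, with no overlap. Its log2 ratio was -0.86 and -1.08 (mean -0.97 ± 0.114, adjusted p = 0.000759), a decrease. With this probe, a choice made after its values were seen, 8 of the 10 genes fell.

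The Mcam probe with the higher intensity holds the 20-base run of GT printed in capitals above. On the array, 76 probes hold a GT or CA run of at least 20 bases, and all 76 were above background and tested. Of these, 1 was called (1.32%), a probe of Pdzrn3 that rose by 0.38 on the log2 scale (adjusted p = 0.0490). Of all 28824 probes tested, 6696 were called (23.2%). The log2 ratios of the 76 probes had a median of -0.16 and lay between -0.43 and 0.38. The first Mcam probe is among the 76, so its ratio lies in that range by construction. The ratio of the other Mcam probe, which has no such run, lay below the range. Whether probes with such runs bind other transcripts was not tested.

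**Figure D3:**
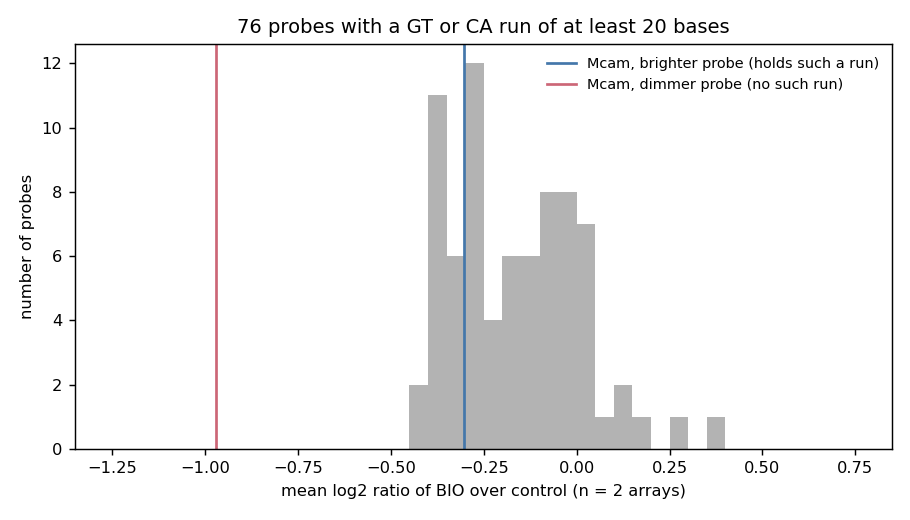
Number of probes (vertical axis) by mean log2 ratio of BIO over control (horizontal axis, n = 2 arrays) among the 76 probes with a GT or CA run of at least 20 bases, with both probes of Mcam as lines. The probe of Mcam that holds such a run (-0.30, blue) is among the 76 probes drawn. The other (-0.97, red) is not, and lies below their lowest value of -0.43.

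The study describes an intensity and fold rule, with no test, for other arrays of its own. When it was applied here, 4 of the 10 genes were at least 2-fold lower with BIO on both arrays and 0 were higher. This rule passed 2.23% of 29864 genes, and 1.47% were lower. The 4 genes were Pdgfrb (5.19-fold and 3.86-fold lower in replicates 1 and 2), Rgs5 (3.85-fold and 3.33-fold), Abcc9 (2.47-fold and 2.49-fold) and Pdgfb (2.24-fold and 2.40-fold). Pdgfra, Kcnj8 and Anpep, which passed the limma test, were less than 2-fold lower on each array.

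The pathway was then followed beyond the 10 genes. Of 20 other PDGF pathway genes, all tested, 2 rose, 3 fell and 15 were not called, with a median log2 ratio of -0.15. These counts are near the shares over all genes tested, of which 9.13% rose and 14.8% fell. They do not set this list apart from the other genes. Pdgfc, which encodes a further ligand of PDGFRα, rose, with signals of 6089 and 6798 in control and of 10765 and 9516 with BIO (mean log2 ratio 0.63 ± 0.118, adjusted p = 0.00684). Pdgfd, which encodes a further ligand of PDGFRβ, was just past the threshold in the opposite direction. Its signals were 1771 and 1882 in control and 1307 and 1562 with BIO (mean log2 ratio -0.38 ± 0.116, adjusted p = 0.0490). The call of Pdgfd was lost with the processed signals, an offset of 16, median centering, no filter on dim probes and the score table (adjusted p between 0.0616 and 0.229), at mean log2 ratios between -0.46 and -0.37. That of Pdgfc was lost with the score table alone (adjusted p = 0.229). Pik3r1, a regulatory subunit gene of PI3 kinase, which acts downstream of both receptors, rose by 0.74 on the log2 scale. Among genes of proteases that can process PDGF ligands, Plau fell by 1.48 and Furin by 0.69, while Plat was not called (-0.15, adjusted p = 0.365).

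Of 15 further mural cell genes, 13 were tested, of which 3 fell, 1 rose and 9 were not called, and Vtn and Steap4 were not tested. Over all genes tested, 14.8% fell and 9.13% rose. The median log2 ratio of the 13 was 0.03, and its sign differed between processing settings (-0.15 to 0.13). Gja4, a connexin gene of arterial endothelium and mural cells, fell (-2.11), as did the transcription factor genes Ebf1 (-1.14) and Heyl (-1.07). Gucy1a1, a subunit gene of the nitric oxide receptor, rose by 0.58. Notch3, a receptor gene of mural cells, was not called (0.34, adjusted p = 0.0525). Of the 13, 0 fell and 5 rose with the score table, and all 5 held the identical value on both arrays in that table. With the processed signals 3 fell and 2 rose, and with the mean of all probes 4 fell and 2 rose.

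**Figure D4:**
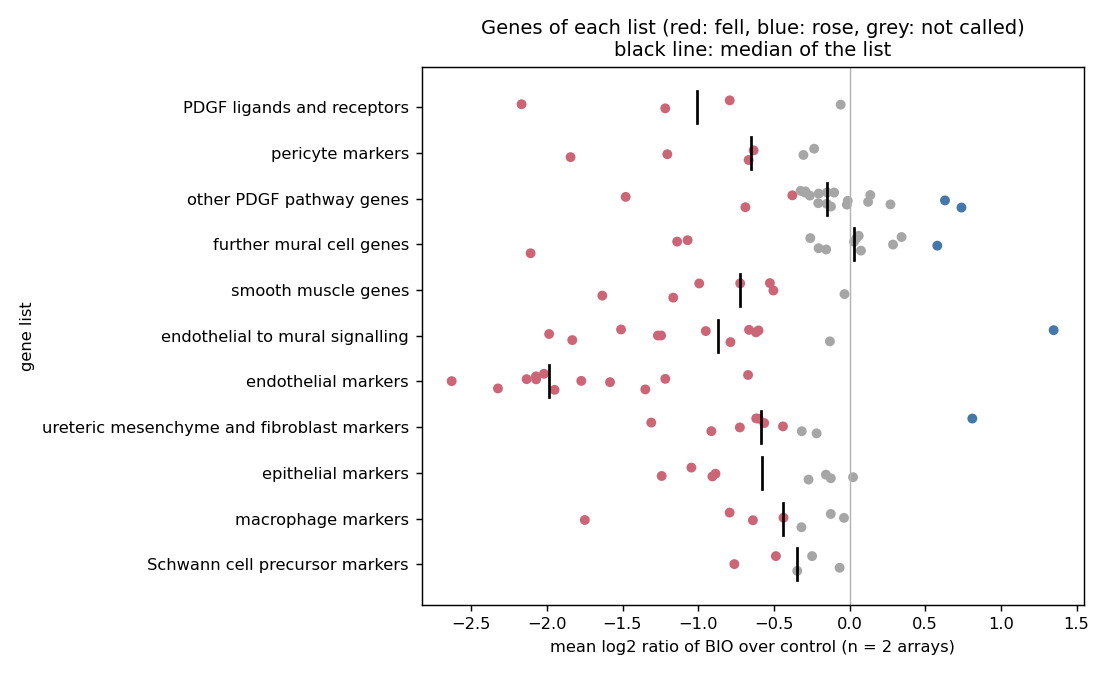
Mean log2 ratio of BIO over control (horizontal axis, n = 2 arrays) of each tested gene, by gene list (rows), with genes that fell in red, genes that rose in blue and genes not called in grey, and with the median of each list as a black line. The 10 genes described here form the upper 2 rows, with the pericyte markers at a median of -0.65, and the endothelial markers lie lowest, at a median of -1.98.

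Markers of other cell types moved alongside. The shares to set beside these counts are 14.8% fallen and 9.13% risen among all genes tested. All 12 endothelial markers fell, with a median log2 ratio of -1.98 (-2.26 in replicate 1 and -1.63 in replicate 2), led by Kdr (-2.63), Cdh5 (-2.32) and Pecam1 (-2.13). Like the ratio of Pdgfrb, that of Kdr was farther below 0 in replicate 1 (-3.10) than in replicate 2 (-2.16). This was not particular to endothelial genes, since the fibroblast marker Lum (-1.53 and -1.09) and the epithelial marker Krt8 (-1.12 and -0.69) did likewise. The endothelial marker Plvap went the other way (-1.71 and -1.83). Erg, also among the 12, was dim, with signals of 23.5 and 23.6 in control and of 3.40 and 9.63 with BIO. Its BIO signals lay below the floor of 15 used for the fold rule, so its ratio carries little weight. Of 12 genes of signaling between endothelium and mural cells, 10 fell, among them Angpt1 (-1.98), Dll4 (-1.83) and S1pr1 (-1.51), while the endothelin gene Edn1 rose by 1.35. Of 7 smooth muscle genes tested, 6 fell, with a median of -0.72, among them Acta2 (-1.63), Des (-1.16) and Tagln (-0.99). Myh11, also among the 6, was near that floor, with signals of 27.1 and 39.1 in control and of 12.4 and 16.1 with BIO.

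Of 10 markers of the UM and fibroblasts, 7 fell and 1 rose, with a median of -0.58. For this and the lists below, the shares among all genes tested were again 14.8% fallen and 9.13% risen. Lum (-1.31), Col3a1 (-0.91) and Col1a2 (-0.72) fell, and Thy1 rose by 0.81. With median centering in place of loess, 2 of the 10 fell. Of 8 epithelial markers 4 fell, with a median of -0.58, among them Krt19 (-1.24), Cdh1 (-1.04) and Krt8 (-0.91). Of 7 macrophage markers tested, 4 fell, with a median of -0.44, among them Cx3cr1 (-1.75), Aif1 (-0.79) and Csf1r (-0.64), and the count was 2 with the processed signals and 0 with the score table. Of 5 Schwann cell precursor markers 2 fell, S100b (-0.76) and Sox10 (-0.49), with a median of -0.35, and 1 fell with median centering. Several of the 10 genes are made by more than one of these cell types, and the part of each cell type in their ratios was not tested.

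The 5 genes whose ratios on both arrays were closest to those of Pdgfrb, by Euclidean distance over the 2 arrays, were Krt23 (distance 0.0631), Nos3 (0.0671), Adra2c (0.0993), Niban1 (0.103) and Gja4 (0.104). Nos3 encodes the endothelial nitric oxide synthase, and Gja4 the connexin named above. With 2 values per gene this is a description of size only.

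Promoters were read from RefSeq for 8 of the 10 genes, 9 promoters in all (GRCm38.p6, 250 bases before to 50 bases after each start), and searched on both strands for letters of 3 motifs. CTTTGA, the core of sites of TCF/LEF factors, was in 1 of 9, that of Rgs5, against 16.02% of 32544 promoters of all genes. The CArG box of serum response factor was in 0 of 9, against 1.64%. TGGGAA, the core of sites of the Notch mediator RBPJ, was in 3 of 9, those of Abcc9 and Kcnj8 and one of Pdgfa, against 25.4%. A match describes letters in this window and is not a site. The 250 bases before the start are printed for Rgs5 (chr1:169655251-169655500, plus strand), where capitals mark the reverse complement of CTTTGA, and for the neighbors Abcc9 (chr6:142702275-142702524, minus strand), where capitals mark TGGGAA, and Kcnj8 (chr6:142571615-142571864, minus strand), whose match lies in the 50 bases after the start and is not shown.
Rgs5 promoter: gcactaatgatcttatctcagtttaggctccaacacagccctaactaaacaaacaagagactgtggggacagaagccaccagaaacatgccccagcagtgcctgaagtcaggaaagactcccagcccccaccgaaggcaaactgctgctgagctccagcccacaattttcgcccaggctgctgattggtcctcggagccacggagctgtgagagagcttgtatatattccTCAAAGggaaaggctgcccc
Abcc9 promoter: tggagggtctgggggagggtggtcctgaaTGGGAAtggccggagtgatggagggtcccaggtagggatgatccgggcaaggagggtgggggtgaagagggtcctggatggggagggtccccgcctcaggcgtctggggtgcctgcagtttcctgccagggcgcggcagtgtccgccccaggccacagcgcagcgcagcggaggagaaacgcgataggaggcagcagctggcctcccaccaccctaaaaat
Kcnj8 promoter: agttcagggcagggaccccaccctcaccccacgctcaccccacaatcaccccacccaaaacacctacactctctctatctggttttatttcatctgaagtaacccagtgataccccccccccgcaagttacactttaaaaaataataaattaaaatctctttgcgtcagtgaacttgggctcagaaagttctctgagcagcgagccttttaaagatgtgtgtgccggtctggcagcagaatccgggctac

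The test was set beside other processing. The count of 7 genes held with the processed signals, an offset of 16, median centering and no filter on dim probes. With these settings between 2766 and 4703 genes were called in all. It was 8 members with the mean of all probes of a gene, where Mcam was also called (-0.64, adjusted p = 0.00448). There 5642 genes were called in all. With the deposited score table in place of the scanner intensities 1 gene, Abcc9, was called (adjusted p = 0.0342), and the other 6 that had fallen had adjusted p between 0.0546 and 0.102 at ratios close to those reported. Of 3248 genes called with that table, 2947 held the identical value on both arrays, as Abcc9 did.

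**Figure D5:**
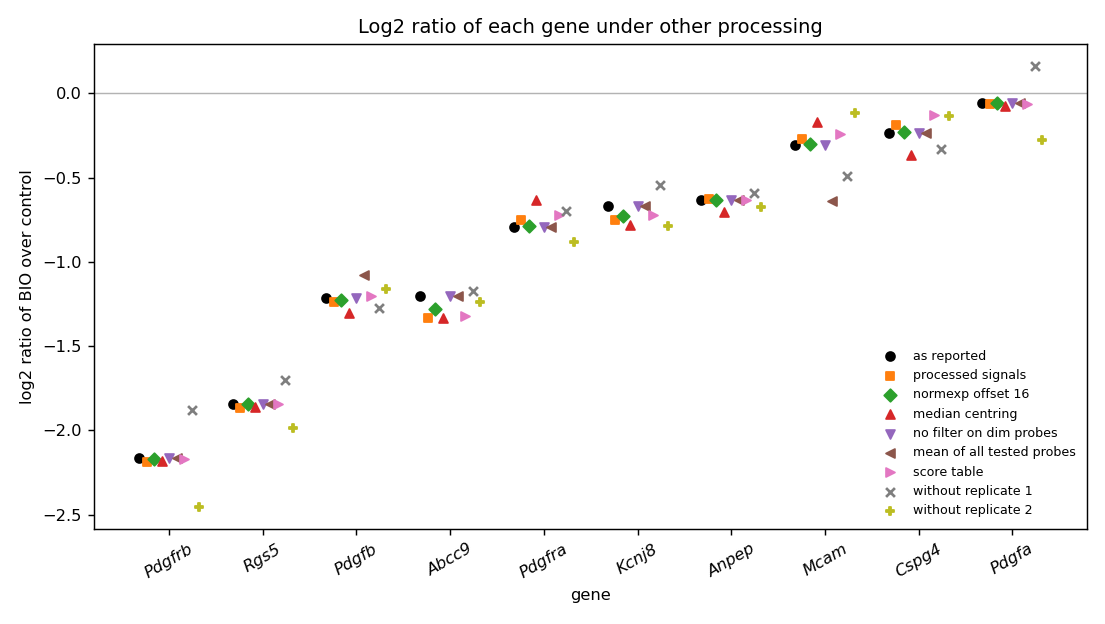
Log2 ratio of BIO over control (vertical axis) of each of the 10 genes as reported (black) and under other processing (colored symbols, offset sideways), including each array alone. The 7 genes that fell stay below 0 under every setting drawn, with Pdgfrb between -2.45 and -1.88, and Pdgfa alone crosses 0, at -0.28 and 0.16 on single arrays.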

How the data were processed

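RNA of 2 pairs of ureter pools, BIO and control, was measured on 2 dye-swapped arrays with 60-base probes, each spotted 4 times. Per the file headers, the authors quantified the scans with Agilent Feature Extraction 10.7.3.1, which gave the deposited intensity per spot, with its local background, and a processed signal. The authors also deposited a score table, whose scale is not given in the sources used here. It followed the ratio of the processed signals (r = 0.988 and 0.982 across probes), had a median of 1 on both arrays and held the identical value on both arrays for 19.9% of tested probes. Per-sample columns of other samples were 0.

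Intensities were corrected with limma 3.58.1 in R 4.3.3 (normexp, offset 50) and normalized within arrays by loess. Control spots were left out, as were outlier spots (3.49% and 3.16% of the non-control spots of replicates 1 and 2). Of the non-control spots 0 were saturated, and those kept were averaged per probe. Probes well above background in one group on both arrays were tested (28824 probes, 21574 genes). Ratios were turned to BIO over control and tested for a difference from 0 in a two-sided limma fit (lmFit, eBayes), and p-values were adjusted by Benjamini-Hochberg over all tested probes (threshold 0.05). For SEs and confidence intervals, eBayes drew the variance of each probe toward a value common to all tested probes. That value had a prior SD of 0.162 with 7.14 prior degrees of freedom. The median SE was 0.111, and the number of arrays limits the precision. The deposited processed signals, raised to a floor of 15 and centered, served the intensity and fold rule (brighter channel at least 100, at least 2-fold on both arrays). Both arrays lay on 1 slide, and replicate and dye cannot be told apart.

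Gene names came from RefSeq GRCm38.p6. All members are named at every probe, and of the other lists up to 3 genes per direction with the largest ratio among those called, with Pdgfc and Pdgfd in any case, and the 5 genes most like the member that changed most. Notch3, Vtn, Steap4, the genes beside members and Pdzrn3 were named after their values were seen. Members and lists were chosen with earlier results of these data known. The script was tested on simulated data. Sequence of Pdgfrb is not reported here.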

Additional observations from a re-analysis of the deposited data

How the results depend on the processing

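The number of genes changed was 5154 of 21574 tested as reported. It was 3248 with the score table, 2766 with median centering and between 3721 and 5642 with the other settings. Members called, all of them lower with BIO, numbered 7 as reported and 1 with the score table, and the changed genes of the other lists 56 and 18. With that table the genes that fell numbered 3 of 12 for endothelial markers, 1 of 12 for endothelial to mural signaling, 2 of 7 for smooth muscle, 2 of 10 for the UM and fibroblasts, 0 for further mural, epithelial, macrophage and Schwann cell precursor genes, and 4 of 20 for other PDGF pathway genes, where 0 rose. Of the 3248 genes called with the score table, 2947 held the identical value on both arrays and thus had no spread between them. The cause of the other differences was not tested. The median log2 ratio of the members was -0.73 as reported, -0.84 without replicate 2 and -0.65 without replicate 1. With the other probe of Mcam, an alternative chosen after seeing the data, it was -0.88, and 8 members fell. By the intensity and fold rule 4 members were lower, 2 at a 3-fold minimum and 6 at a 1.5-fold minimum, and 4 on each array alone. The share over all genes is given for the 2-fold minimum on both arrays only. No member reversed its direction with both arrays. The test was paired by construction, since each ratio was taken between BIO and control RNA on one array, and no further replicate block could be fitted to these ratios. With 2 arrays the precision is that of the limma standard errors, with a median of 0.111.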
